A study of Mus musculus with 8 samples.

Results

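The genes described here were abundant in control hair follicle bulge stem cells and scarce in control cells of the hair bulb, and they were followed through 3 deletions of Bmpr1a. A gene was taken when it had at least 20 FPKM, a level per length of transcript and per number of fragments mapped, in the control bulge library and at least 16 times its level in the control library of Shh-CreER hair bulb cells. Symbols that start with Krt, Rpl, Rps, Lce or Sprr were left out, which removed 40 of 291 genes. This left 251 members of 22354 gene symbols. Of the members, 12 were listed at 0 in the Shh-CreER control library and passed for that reason. The members were thus chosen by their levels in the bulge and Shh-CreER control libraries, and a high level in control bulge cells or a low one in control Shh-CreER cells is no result. The 2 libraries come from tables that were normalized separately. Over the 10981 genes with at least 1 FPKM in both, the median ratio of bulge over Shh-CreER control was 0.789.

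Bmpr1a encodes a receptor kinase for bone morphogenetic proteins (BMPs), and the series compared its loss in hair follicle stem cells and in their dividing progeny, the transit-amplifying cells (TACs). All mice were of mixed strain. The deleted genotypes were K15-CrePGR;Bmpr1a fl/fl and Shh-CreER;Bmpr1a fl/fl, in which the Bmpr1a alleles are flanked by loxP sites and can be cut out by Cre. Stem cells of the bulge (HFSCs) came from K15-CrePGR mice at postnatal day 68, with 1 deleted (cKO) and 1 control (Het) library. TACs of Shh-CreER mice were taken at day 68, also with 1 cKO and 1 Het library. Hair bulb TACs of K15-CrePGR mice were taken at day 80, from KO samples 64 and 84 and WT samples 52 and 57, which the labels do not describe as separate animals. K15-CrePGR is a Cre recombinase switched on by a progesterone antagonist in cells that use the keratin 15 promoter, mainly those of the bulge. Shh-CreER is switched on by tamoxifen in the part of the hair bulb that expresses Shh, so neither driver reaches every cell of a follicle, and no source used here gives the induction schedule.

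The bulge is the niche of the resting stem cells of the hair follicle. BMP signals help to keep these cells quiescent, while in the hair bulb they are needed for matrix TACs to differentiate into hair shaft and inner root sheath. Bulge cells are known for the surface protein CD34, the Wnt-linked receptor LGR5, the transcription factors SOX9, TBX1 and NFATC1, and a matrix rich in periostin and collagen XVII.

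The levels of Bmpr1a do not check the genotypes, since a value for the whole gene says nothing of a deleted part. Bmpr1a had 39.9 FPKM (KO 64) and 38.0 FPKM (KO 84), against 42.2 FPKM (WT 52) and 37.1 FPKM (WT 57). Of 15 markers of hair matrix and shaft, 14 were listed in the table under their symbol. They summed to 1470 and 1124 FPKM in KO 64 and KO 84 and to 3539 and 2897 FPKM in WT 52 and WT 57. Most of each WT sum was the hair shaft keratin Krt35, at 2519 and 2028 FPKM, so hair shaft expression is visible in the control samples. For 8 of the 14 both KO samples were below both WT samples, and for 3 both were above. These 3 were Shh (50.5 and 72.8 FPKM in KO, against 19.6 and 19.8 FPKM in WT), Edar and Ptch1. The sex-linked transcripts Xist and Ddx3y show that the libraries of a comparison were not matched for sex. Among the hair bulb samples, KO 64, KO 84 and WT 57 had Xist between 175 and 226 FPKM, and WT 52 had 3.26 FPKM, with Ddx3y at 26.4 FPKM. In HFSCs, Ddx3y was at 23.2 FPKM in cKO and 0.255 FPKM in Het, and both Shh-CreER libraries expressed both transcripts. The part of sex in the results below was not tested.

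The members spanned a wide range of levels and of functions. In the HFSC Het library they lay between 20.01 and 6812 FPKM with a median of 75.7 FPKM. In the Shh-CreER Het library they lay between 0 and 110 FPKM with a median of 1.40 FPKM. At the edge of the level threshold, Tppp, Slc46a2 and Prickle2 were just inside with 20.01, 20.05 and 20.23 FPKM, and Nlrp10, Sema3d and Zbtb16 just outside with 19.9, 19.9 and 19.7 FPKM. At the edge of the ratio, Il20rb, Slc6a6 and Tubb2c were just inside with 16.1, 16.5 and 16.6 times the Shh-CreER level, and Lrig1, Nanp and Fxyd6 just outside with 15.9, 15.9 and 15.7 times.

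The highest members were not all bulge genes by repute. Srp54b, a subunit of the signal recognition particle, was listed at 7327 FPKM in cKO HFSCs and 6812 FPKM in Het HFSCs. The polyubiquitin gene Ubb had 6153 FPKM in cKO and 5690 FPKM in Het HFSCs, and the cytoplasmic actin gene Actg1 had 2849 FPKM in cKO and 2547 FPKM in Het HFSCs. Both are used by nearly every cell. Reads of such genes can be hard to tell from those of processed copies or close relatives, so their values are uncertain. To mark them without use of any level, the longest transcript of each gene was cut into words of 50 bases. A gene was said to have a near-identical copy when at least 20% of its words also occurred in transcripts of another gene. Of 249 members with a transcript, 63 (25.3%) had such a copy, against 274 of 4013 other genes (6.83%) with at least 20 FPKM in the HFSC Het library. Srp54b shared 99.8% of its words and Ubb 55.4%, while the cyclophilin gene Ppia, with 14.8%, fell short of the mark. The split was made after values had been seen, and results are given for both sides of it.

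In K15-CrePGR TACs, most members were higher without Bmpr1a, and the members without a near-identical copy made up nearly all of these. This is the contrast whose values the choice of members did not use. Among them were the bulge markers Cd34, Lgr5, Sox9, Tbx1 and Postn, the basement membrane gene Lamb3, the BMP antagonist Nbl1 and the lipid enzyme Acsbg1. Of the 251 members, 220 were listed under their symbol alone in this table, which is called a locus of their own. Another 24 were listed under a symbol joined with that of another gene, and 7 were not listed under their symbol. Some of the 220 still share their coordinates, such as Klk7 with Klk5 and Ccl27a with Il11ra1. Both KO samples were above both WT samples for 132 of the 220 (60.0%), and both were below for 21 (9.55%). Over all 22335 named loci above 0 in any sample the same orders held for 27.5% and 20.4%. Of the 173 members without a near-identical copy, both KO samples were above for 119 (68.8%) and below for 7 (4.05%). Of the 46 with a copy, both KO samples were above for 12 (26.1%) and below for 14 (30.4%).

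No member passed the test of single genes. With limma on log2(FPKM + 1) over the 13565 loci averaging 1 FPKM or more, 9 loci (0.0663%) had an adjusted p below 0.05 (Benjamini-Hochberg), and 0 of the 148 members tested were among them. At an unadjusted p below 0.05, 63 members were higher and 7 lower in KO, where 10.3% and 7.08% of all loci were. Of the 148, 30 reached the mean of 1 FPKM only through the KO samples and 1 only through the WT samples, so counts over the 148, those by p included, favour genes high in KO. The counts of 132 above and 21 below were taken without that filter. Where the filter asked for a WT mean of 1 FPKM, which favours genes low in KO, both KO samples were above for 62 of 120 members and below for 20, where 23.1% and 29.7% of 12796 loci were.

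**Figure D1:**
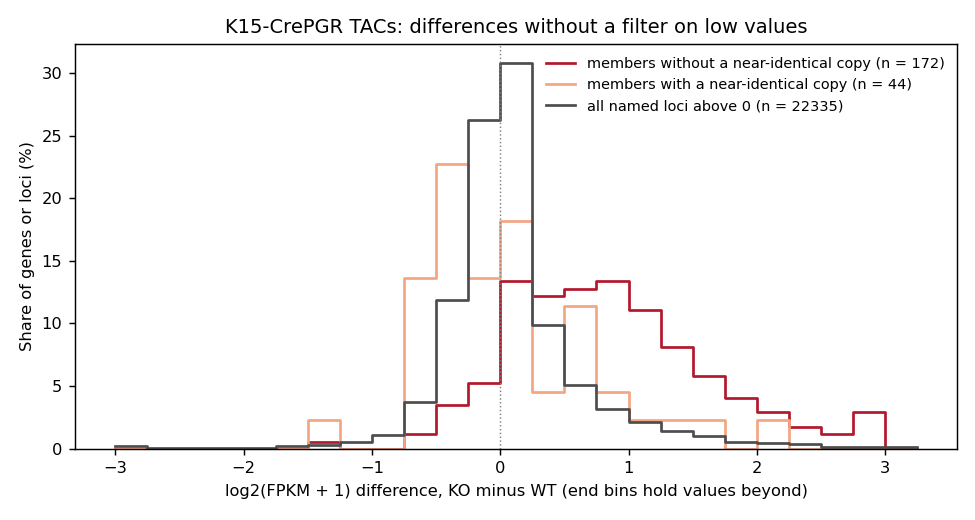
Distribution of the log2(FPKM + 1) difference, KO minus WT, in K15-CrePGR hair bulb TACs, for 172 members without a near-identical copy, 44 members with one and all 22335 named loci above 0 in any sample. The vertical axis is the share of each set in bins of the difference; the medians are 0.76, -0.02 and 0.02, and 37.8%, 9.09% and 6.52% of each set are at least 2-fold higher in KO.

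The markers of many other cell types were also higher in the KO samples, above all in KO 64. A marker is called above, or below, in both KO samples when both lay above, or below, both WT samples, which held for 26.8% and 27.5% of the 13565 loci tested. Sums run over all markers of a list found in the table, tested or not. The immune cell list had all 10 tested markers above, with sums of 744 FPKM (KO 64) and 240 FPKM (KO 84), against 143 FPKM (WT 52) and 104 FPKM (WT 57). Most of the KO 84 and WT sums was Epcam, which epithelial cells also express, at 85.1 and 124 FPKM in KO, against 82.5 and 82.9 FPKM in WT. The immune sums therefore understate how far the other markers of the list differed. For dermal fibroblasts 9 of 10 were above, with sums of 1639 and 511 FPKM in KO 64 and KO 84, against 413 and 444 FPKM in WT 52 and WT 57. For smooth muscle and pericytes 6 of 6 were above, with 145 and 78.4 FPKM in KO, against 23.1 and 21.6 FPKM in WT. In each of these lists KO 64 held the highest sum and KO 84 the next. For endothelium 4 of 5 were above, with 35.5 and 4.57 FPKM in KO, against 3.51 and 1.66 FPKM in WT. For melanocytes 6 of 7 were above, with 132 and 43.3 FPKM in KO, against 35.3 and 37.1 FPKM in WT. The Langerhans cell gene Cd207 was at 0.299 FPKM in KO 64 and listed at 0 in the other 3 samples. Not every list rose. Skeletal muscle markers were above in 0 of 6 cases and below in 1, and dermal papilla markers above in 2 of 9 and below in 1. Fibroblast and melanocyte sums in KO 84 lay near the WT range, while those of KO 64 were several times above it. Most of the KO 84 and WT fibroblast sums was Dcn, at 551 and 291 FPKM in KO, against 284 and 382 FPKM in WT. Dcn was the only fibroblast marker not above in both KO samples. Among tested melanocyte markers only Kit was not above, and in KO 84 Kit lay below both WT samples. The KO 84 sums of both lists therefore understate how far their other markers differed.

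Epithelial lists moved in both directions. Outer root sheath markers were above in 9 of 11 cases, with 2566 and 3766 FPKM in KO, against 1303 and 1328 FPKM in WT. Isthmus and infundibulum markers were above in 7 of 7, with 947 and 2057 FPKM in KO, against 359 and 261 FPKM in WT. Inner root sheath markers were below in 9 of 11, with 1640 and 1342 FPKM in KO, against 4973 and 5090 FPKM in WT. That list includes S100a3 and Dsg4, which the hair shaft also expresses, and both were among the 9. S100a3 was at 166 and 81.7 FPKM in KO, against 623 and 459 FPKM in WT. Markers of interfollicular and cornified epidermis were above in 7 of 15 and below in 2, with 840 and 934 FPKM in KO, against 810 and 639 FPKM in WT. In bulk samples, fewer cells of a type and less RNA per cell cannot be told apart, and the part of cell composition in the members' differences was not tested.

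Taken from KO 84 alone, the member counts stood as follows. KO 84 was above both WT samples for 145 of 220 members (65.9%), where 41.2% of all loci were, and for 124 of the 173 without a near-identical copy (71.7%). It was below both for 42, where 30.4% of all loci were. Among members averaging 1 FPKM or more, those below both WT samples numbered 19 with both KO samples and 32 without KO 64. KO 64 was the higher of the KO samples for 141 of the 220 members. A list of 26 bulge stem cell markers, 15 of which are members, had 19 of 21 tested genes above in both KO samples and 0 below. Its sums were 970 and 805 FPKM in KO 64 and KO 84, against 309 and 310 FPKM in WT 52 and WT 57, and 0 of its genes passed the adjusted threshold.

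**Figure D2:**
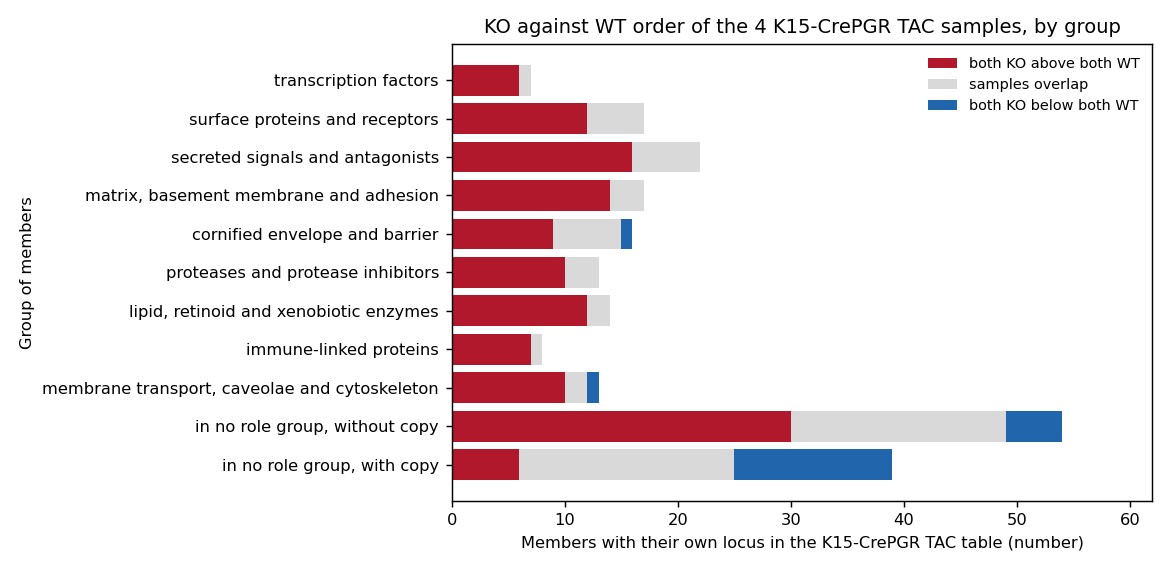
Number of members with a locus of their own in the K15-CrePGR TAC table for which both KO samples were above both WT samples, the samples overlapped, or both KO samples were below both WT samples, by group of members. All role groups except cornified envelope and membrane transport hold 0 members below; the members in no role group with a near-identical copy hold 6 above and 14 below.

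The 138 members with a clear role were sorted into 9 groups by function. The sorting was done after values had been seen, so the groups are described by their counts, with no test. The counts are to be read against the 27.5% of all loci that were above and the 20.4% that were below, and against the 60.0% and 9.55% of all members. The plot of counts by group shows them side by side.

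Transcription factors were 7 members, and 6 of them were above in both KO samples, where 27.5% of all loci were. Sox9, which bulge stem cells need for their maintenance, had 12.5 FPKM in KO 64 and 14.6 FPKM in KO 84, against 4.21 FPKM in WT 52 and 1.02 FPKM in WT 57. The KO samples were close to each other and the WT samples were not, but the genotypes did not overlap (log2 difference 2.16 ± 0.49 SE, limma adjusted p = 0.175). Tbx1, a T-box factor of bulge stem cell self-renewal, had 24.98 and 15.9 FPKM in KO 64 and KO 84, against 8.61 and 5.49 FPKM in WT 52 and WT 57 (log2 difference 1.41 ± 0.31 SE, limma adjusted p = 0.172). Nfatc1, a factor that holds bulge cells in quiescence downstream of BMP, was low throughout, with 2.58 and 1.02 FPKM in KO, against 0.325 and 0.0748 FPKM in WT, and did not reach the mean of 1 FPKM. Foxc1, a forkhead factor of stem cell quiescence, had 2.94 and 1.81 FPKM in KO, against 1.77 and 1.44 FPKM in WT, so that KO 84 and WT 52 hardly differed, and its log2 difference of 0.36 was -0.039 with quantile normalization.

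Sox9 was the only member at least 2-fold higher on the log2(FPKM + 1) scale in all 3 deletions, in HFSCs by a log2 difference of 1.00 that lay right at that limit. It stood at 120 FPKM in cKO and 59.4 FPKM in Het HFSCs, and at 5.62 FPKM in cKO and 2.15 FPKM in Het TACs of Shh-CreER mice. These tables hold 1 library per genotype, so the agreement in direction has no replicate check there. Tbx1 and Nfatc1 differed by less than 2-fold in HFSCs, with 134 FPKM in cKO and 123 FPKM in Het for Tbx1, and 33.4 FPKM in cKO and 38.0 FPKM in Het for Nfatc1.

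Surface proteins and receptors were 17 members, of which 12 were above in both KO samples and 0 below. Lgr5, the receptor for R-spondins that marks cycling follicle stem cells, had 26.1 FPKM in KO 64 and 26.2 FPKM in KO 84, against 3.69 FPKM in WT 52 and 5.56 FPKM in WT 57. The KO samples were alike, and their level was several times that of either WT sample (log2 difference 2.29 ± 0.21 SE, limma adjusted p = 0.0866). Cd34, the sialomucin used to sort bulge cells, had 50.9 FPKM in KO 64 but 9.77 FPKM in KO 84, against 4.32 and 6.17 FPKM in WT 52 and WT 57 (log2 difference 1.94 ± 0.79 SE, limma adjusted p = 0.310). Most of its difference thus came from KO 64. Cspg4, the NG2 proteoglycan, which pericytes also carry, had 8.51 and 5.81 FPKM in KO, against 0.991 and 1.39 FPKM in WT (log2 difference 1.88, limma adjusted p = 0.111).

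In HFSCs, Cd34 differed by more than 2-fold and Lgr5 did not. Cd34 was at 147 FPKM in cKO and 556 FPKM in Het HFSCs, a log2 difference of -1.91. Lgr5 was at 70.3 FPKM in cKO and 55.2 FPKM in Het HFSCs, a log2 difference of 0.34. Nt5e, the ecto-5'-nucleotidase CD73, was at 26.5 FPKM in cKO and 6.23 FPKM in Het Shh-CreER TACs, among the largest differences there, while in K15-CrePGR TACs its samples overlapped, with 6.46 and 3.83 FPKM in KO, against 4.30 and 3.15 FPKM in WT.

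**Figure D3:**
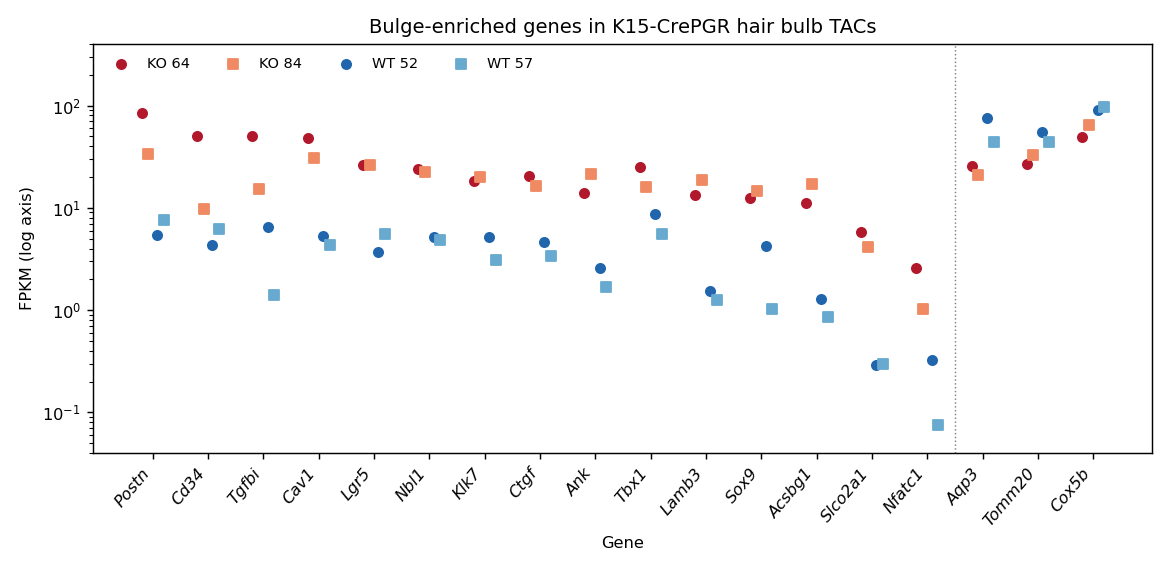
Levels of 18 members in the 4 K15-CrePGR TAC samples, in FPKM on a log axis; circles and squares are the 2 samples of each genotype, KO in red and orange to the left of WT in blue. The 15 genes left of the dotted line were above in both KO samples, with KO 64 far above KO 84 for Cd34 and the KO samples nearly equal for Lgr5; the 3 right of it were below.

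Secreted signals and antagonists were 22 members, with 16 above in both KO samples and 0 below. Nbl1, a secreted antagonist of BMPs also called DAN, had the lowest p of all members. Its level was 23.8 FPKM in KO 64 and 22.4 FPKM in KO 84, against 5.15 FPKM in WT 52 and 4.81 FPKM in WT 57. Both genotypes were tight, and the log2 difference of 2.01 ± 0.14 SE had a limma adjusted p of 0.0597. That p was 0.0425 with a pseudocount of 0.1 and 0.0459 over loci averaging 5 FPKM or more, and it ranged from 0.0425 to 0.599 over all alternatives. Nbl1 was also higher in cKO TACs of Shh-CreER mice, with 16.2 FPKM in cKO and 6.90 FPKM in Het, and lower in cKO HFSCs, with 154 FPKM in cKO and 258 FPKM in Het. In the K15-CrePGR table its locus lies on mm9 chromosome 4 at 138638198 to 138648908.

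Ctgf, a matrix-bound growth factor and YAP target, had 20.4 FPKM in KO 64 and 16.4 FPKM in KO 84, against 4.64 and 3.39 FPKM in WT 52 and WT 57 (log2 difference 1.96 ± 0.21 SE, limma adjusted p = 0.0866). It had the largest log2 difference of all members in Shh-CreER TACs, at 35.3 FPKM in cKO and 6.58 FPKM in Het. In HFSCs it was at 310 FPKM in cKO and 559 FPKM in Het, so its order in HFSCs was the reverse of that in both TAC tables.

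The Wnt modulators showed a mixed picture in HFSCs. Sfrp1, a secreted Wnt inhibitor, had 196 FPKM in cKO and 82.0 FPKM in Het HFSCs, and Shisa2, which retains Frizzled and FGF receptors in the cell, had 186 FPKM in cKO and 76.6 FPKM in Het. Dkk3, of the Dickkopf family, was at 109 FPKM in cKO and 207 FPKM in Het HFSCs. In K15-CrePGR TACs all of these were above in both KO samples. Sfrp1 had 18.4 and 7.55 FPKM in KO 64 and KO 84, against 3.43 and 1.70 FPKM in WT 52 and WT 57. Shisa2 had 12.3 and 14.8 FPKM in KO, against 6.36 and 2.89 FPKM in WT. Dkk3 had 6.21 and 3.38 FPKM in KO, against 1.26 and 0.926 FPKM in WT, and the limma adjusted p was between 0.181 and 0.205 for these 3 genes.

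Several bulge signals stayed at low levels in every TAC sample. The BMP antagonist Grem1 was at 40.0 FPKM in cKO and 151 FPKM in Het HFSCs, and in K15-CrePGR TACs at 0.486 and 0.156 FPKM in KO, with 0.0235 FPKM in WT 57 and listed at 0 in WT 52. Nog, the BMP antagonist noggin, was at 2.32 FPKM in cKO and 38.2 FPKM in Het HFSCs, and at 1.00 and 0.425 FPKM in KO TACs, against 0.121 and 0.0539 FPKM in WT TACs. Fgf18, a growth factor of the resting follicle, was at 1.72 FPKM in cKO and 26.5 FPKM in Het HFSCs, and at 0.656 and 0.293 FPKM in KO TACs, against 0.0801 and 0.0785 FPKM in WT TACs. The samples did not overlap for any of these, but the levels were under the filter of the test. Angptl7, an angiopoietin-like factor of quiescent follicles, behaved alike, with 0.598 and 0.886 FPKM in KO, against 0.134 and 0.0633 FPKM in WT. Igfbp3, a carrier of insulin-like growth factors, overlapped, with 44.0 and 9.16 FPKM in KO, against 16.2 and 20.8 FPKM in WT, and the gut hormone gene Cck overlapped too, with 1.33 and 0.160 FPKM in KO, against 0.954 and 0.193 FPKM in WT.

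Matrix, basement membrane and adhesion genes were 18 members, 17 of them with their own locus, of which 14 were above in both KO samples and 0 below. Lamb3, the beta 3 chain of laminin 332, which anchors basal cells to the basement membrane, had 13.4 FPKM in KO 64 and 18.6 FPKM in KO 84, against 1.54 FPKM in WT 52 and 1.25 FPKM in WT 57. The gap between the genotypes was far wider than within either (log2 difference 2.81 ± 0.23 SE, limma adjusted p = 0.0734). Postn, periostin, had 85.5 and 33.8 FPKM in KO, against 5.40 and 7.65 FPKM in WT (log2 difference 2.88 ± 0.49 SE, limma adjusted p = 0.126). Fibroblasts also make periostin, and it stood in the fibroblast list whose sums are given above. Dst, the bullous pemphigoid antigen that ties keratin filaments to hemidesmosomes, had 15.2 and 6.97 FPKM in KO, against 2.84 and 2.70 FPKM in WT (log2 difference 1.59, limma adjusted p = 0.187).

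Not every gene of the basement membrane zone followed. Col17a1, the transmembrane collagen XVII of hemidesmosomes, had 41.0 FPKM in KO 64 and 9.86 FPKM in KO 84, against 7.37 and 12.6 FPKM in WT 52 and WT 57, so KO 84 lay between the WT samples. Its limma adjusted p was 0.492. Cdh13, a cadherin anchored by a lipid, had 7.98 and 1.22 FPKM in KO, against 1.29 and 0.198 FPKM in WT, and overlapped as well. Of a list of 30 matrix and adhesion genes, 5 of which are members, 24 of 30 were above in both KO samples, and none passed the adjusted threshold, with 0 below. Col12a1, a collagen that lies along fibrils, had 13.3 and 3.61 FPKM in KO, against 0.562 and 0.968 FPKM in WT TACs, and 40.6 FPKM in cKO and 20.7 FPKM in Het HFSCs. Megf6, a protein with repeats like those of epidermal growth factor, had 12.4 FPKM in cKO and 2.28 FPKM in Het Shh-CreER TACs, and in K15-CrePGR TACs 2.93 and 0.984 FPKM in KO, against 0.404 and 0.164 FPKM in WT.

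Lipid, retinoid and xenobiotic enzymes were 17 members, 14 with their own locus, of which 12 were above in both KO samples and 0 below. Acsbg1, an acyl-CoA synthetase of long-chain fatty acids that sebaceous glands also express, had 11.2 FPKM in KO 64 and 17.2 FPKM in KO 84, against 1.29 and 0.856 FPKM in WT 52 and WT 57 (log2 difference 2.85 ± 0.28 SE, limma adjusted p = 0.0866). The sebaceous gland list, which contains it, had 8 of 10 tested genes above in both KO samples, with sums of 295 and 252 FPKM in KO, against 171 and 170 FPKM in WT. Slco2a1, a prostaglandin transporter, had 5.85 and 4.15 FPKM in KO, against 0.292 and 0.299 FPKM in WT (log2 difference 2.20 ± 0.28 SE, limma adjusted p = 0.0960). Crabp2, a carrier of retinoic acid, had 5.53 and 7.41 FPKM in KO, against 2.35 and 1.87 FPKM in WT, and in Shh-CreER TACs 22.5 FPKM in cKO and 3.96 FPKM in Het. Cyp26b1, which breaks down retinoic acid, had 2.51 and 2.95 FPKM in KO, against 0.414 and 0.219 FPKM in WT, whereas in HFSCs it was at 1.51 FPKM in cKO and 26.03 FPKM in Het.

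Membrane transport, caveolae and cytoskeleton held 13 members, of which 10 were above in both KO samples and 1 below. Cav1, the main coat protein of caveolae, had 48.5 FPKM in KO 64 and 30.4 FPKM in KO 84, against 5.31 and 4.29 FPKM in WT 52 and WT 57 (log2 difference 2.77 ± 0.27 SE, limma adjusted p = 0.0866). Ank, a membrane protein linked to the pyrophosphate outside cells, had 13.8 and 21.3 FPKM in KO, against 2.60 and 1.68 FPKM in WT (log2 difference 2.55 ± 0.29 SE, limma adjusted p = 0.0866). Both differences were several times the spread within a genotype. Aqp3, the glycerol and water channel of keratinocytes, was the only member of the group below in both KO samples. It had 25.8 FPKM in KO 64 and 20.8 FPKM in KO 84, against 74.98 and 44.3 FPKM in WT 52 and WT 57 (log2 difference -1.28 ± 0.30 SE, limma adjusted p = 0.183). It was lower in HFSCs too, with 262 FPKM in cKO and 628 FPKM in Het, and nearly equal in Shh-CreER TACs, with 34.7 FPKM in cKO and 36.0 FPKM in Het. Anxa8, an annexin of outer sheath keratinocytes, overlapped in K15-CrePGR TACs with 44.5 and 59.2 FPKM in KO, against 72.1 and 49.5 FPKM in WT. It was lower in both of the other deletions, at 609 FPKM in cKO and 1944 FPKM in Het HFSCs and at 18.5 FPKM in cKO and 95.6 FPKM in Het Shh-CreER TACs.

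The promoters of 3 of these genes are shown because they hold the GC-rich motif GGCGCC, which Smad proteins downstream of BMP receptors can bind. Each runs from 250 bases before to 50 bases after the start of the gene on its own strand, from RefSeq on build GRCm38.p6, with the motif in capitals. Nbl1 is at chr4:139092921-139093220 on the minus strand, Ank at chr15:27466427-27466726 on the plus strand, and Aqp3, lower in both KO samples, at chr4:41098134-41098433 on the minus strand.
Nbl1: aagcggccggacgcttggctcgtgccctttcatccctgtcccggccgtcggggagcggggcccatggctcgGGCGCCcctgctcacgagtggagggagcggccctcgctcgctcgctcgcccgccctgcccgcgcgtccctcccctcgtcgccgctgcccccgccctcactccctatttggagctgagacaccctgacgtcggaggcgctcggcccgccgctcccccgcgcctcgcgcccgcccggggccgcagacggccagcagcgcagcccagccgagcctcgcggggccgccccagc
Ank: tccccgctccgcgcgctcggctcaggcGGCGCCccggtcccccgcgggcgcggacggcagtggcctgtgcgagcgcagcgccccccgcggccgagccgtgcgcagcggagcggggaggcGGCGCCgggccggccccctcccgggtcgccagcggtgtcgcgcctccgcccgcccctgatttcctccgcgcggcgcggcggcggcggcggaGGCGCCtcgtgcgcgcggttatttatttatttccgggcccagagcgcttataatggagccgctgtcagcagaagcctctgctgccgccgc
Aqp3: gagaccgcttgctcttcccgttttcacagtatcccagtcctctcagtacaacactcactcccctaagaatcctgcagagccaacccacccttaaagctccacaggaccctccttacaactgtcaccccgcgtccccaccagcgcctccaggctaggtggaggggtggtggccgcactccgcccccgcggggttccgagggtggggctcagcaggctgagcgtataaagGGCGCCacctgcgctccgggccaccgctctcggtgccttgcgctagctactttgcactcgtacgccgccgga
Of the 172 members with a promoter in this set, 34 (19.8%) held GGCGCC on either strand, against 3617 of all 27025 genes (13.4%), and of the 137 without a near-identical copy 24 (17.5%) did. The AP-1 motif TGANTCA was in 23 (13.4%), or 16 (11.7%) of those without a copy, against 8.97% of all genes, the Tcf/Lef motif CTTTGAT in 9 (5.23%), or 7 (5.11%) without a copy, against 4.29%, and the Sox motif ACAAAGG, which resembles the Tcf/Lef core, in 8 (4.65%), or 6 (4.38%) without a copy, against 6.75%. The palindromic NFI motif was in 0 member promoters and in 12 promoters of all genes (0.0444%). These are counts of letters and not of bound sites, and Sox9, Lgr5, Nog and Ctgf were not among the promoters.

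Genes of the cornified envelope and barrier were 19 members, 16 with their own locus, of which 9 were above in both KO samples and 1 below. Calm4, a calmodulin-like protein of differentiating keratinocytes, had 25.9 and 34.0 FPKM in KO 64 and KO 84, against 18.4 and 9.25 FPKM in WT 52 and WT 57 (log2 difference 1.12, limma adjusted p = 0.251). In Shh-CreER TACs it was at 72.5 FPKM in cKO and 17.3 FPKM in Het. Spink5, the serine protease inhibitor LEKTI, had 2.41 and 6.70 FPKM in KO, against 1.52 and 0.969 FPKM in WT, and Cdsn, corneodesmosin, had 3.27 and 1.15 FPKM in KO, against 0.595 and 0.316 FPKM in WT. Lor, loricrin, a main protein of the cornified envelope, overlapped, with 9.20 and 0.465 FPKM in KO, against 5.20 and 2.63 FPKM in WT. Dmkn, dermokine, was the highest of the group and overlapped as well, with 185 and 287 FPKM in KO, against 233 and 178 FPKM in WT.

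In HFSCs, where the Het library chose the members for high values, 12 of the 19 were at least 2-fold lower in the cKO library, with a median log2 difference of -1.90. Of all 251 members, 90 were, and of all 12202 genes 4.61% were. Lor was at 42.0 FPKM in cKO and 1119 FPKM in Het, the largest difference of any member. Flg2, a filaggrin relative, was at 8.41 FPKM in cKO and 74.5 FPKM in Het. The marker list of that tissue, 8 of whose genes are members, summed to 9456 FPKM in cKO and 20494 FPKM in Het HFSCs.

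Proteases and their inhibitors were 15 members, 13 with their own locus, of which 10 were above in both KO samples and 0 below. Klk7, a kallikrein that cleaves corneodesmosomes, had 18.4 FPKM in KO 64 and 19.96 FPKM in KO 84, against 5.20 and 3.11 FPKM in WT 52 and WT 57 (log2 difference 2.00 ± 0.25 SE, limma adjusted p = 0.0921), and 21.0 FPKM in cKO and 5.31 FPKM in Het Shh-CreER TACs. Cst6, the cystatin M/E that inhibits cathepsins of the epidermis, had 16.7 and 14.9 FPKM in KO, against 6.55 and 3.64 FPKM in WT. The immune-linked group held 10 members, 8 with their own locus, and 7 of these were above in both KO samples. Its highest member Defb6, a beta defensin that marks the isthmus, had 130 and 89.1 FPKM in KO, against 31.5 and 8.94 FPKM in WT (log2 difference 2.60 ± 0.62 SE, limma adjusted p = 0.186), and 1147 FPKM in cKO and 644 FPKM in Het HFSCs.

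Members in no role group divided along the presence of a copy. Of 54 without a near-identical copy, 30 (55.6%) were above in both KO samples and 5 (9.26%) below. Mtmr11, a myotubularin-related protein, had 12.02 and 14.8 FPKM in KO, against 5.18 and 5.32 FPKM in WT (log2 difference 1.20 ± 0.17 SE, limma adjusted p = 0.111). Of 39 with a copy, 6 (15.4%) were above and 14 (35.9%) below. These include genes of mitochondria and of general gene expression. Cox5b, a subunit of cytochrome c oxidase, had 48.9 and 65.1 FPKM in KO, against 91.3 and 97.8 FPKM in WT (log2 difference -0.73, limma adjusted p = 0.208). Btf3, a transcription factor and part of the nascent polypeptide complex, had 278 and 349 FPKM in KO, against 430 and 453 FPKM in WT. Tomm20, the import receptor of the outer mitochondrial membrane, which shared 6.31% of its words and so counted as without a copy, had 26.8 and 33.0 FPKM in KO, against 54.5 and 44.5 FPKM in WT.

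Shh-CreER TACs hold 1 library per genotype, and the Het library there chose the members for low values, so their differences are a description. Of 163 members averaging 1 FPKM or more, 24 were at least 2-fold higher in cKO and 4 lower, on the log2(FPKM + 1) scale. Over all 12295 genes the shares were 2.67% and 2.77%. A member low in Het can reach the mean of 1 FPKM through cKO alone, so the member counts favour genes higher in cKO. Scd3, at 2.34 FPKM in cKO and 0.400 FPKM in Het, passed in this way. The 8 highest differences, between 1.80 and 2.26 on the log2 scale, were those of Ctgf, Crabp2, Serpinb10-ps, Pin4, Megf6, Calm4, Nt5e and Klk7. The symbol of Serpinb10-ps marks a pseudogene, and Pin4, which has a near-identical copy, was at 3.34 FPKM in cKO and listed at 0 in Het. Anxa8 (-2.30) and Nccrp1 (-1.47), a gene of squamous epithelium, were the lowest after Srp54b, which was listed at 0 in cKO and at 34.6 FPKM in Het and whose reads cannot be told from those of its copy. Of the list of 26 bulge stem cell markers, 22 averaged 1 FPKM or more here. Of these, 4 were at least 2-fold higher in cKO, Sox9 and Ctgf among them, and 1 was lower. The markers Cd34, Lgr5, Tbx1 and Nfatc1 did not differ 2-fold. Cd34 was at 23.4 FPKM in cKO and 22.1 FPKM in Het, Lgr5 at 0.891 FPKM in cKO and 1.31 FPKM in Het, Tbx1 at 2.14 FPKM in cKO and 2.40 FPKM in Het, and Nfatc1 at 1.61 FPKM in cKO and 1.46 FPKM in Het. All of these were above in both KO samples of K15-CrePGR TACs, but whether the deletions differ was not tested.

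The 24 members higher in Shh-CreER cKO can be set beside the K15-CrePGR samples, which share no library with them. Of these 24, 20 had their own locus there, and both KO samples were above for 15 (75%) and below for 1, where 60.0% and 9.55% of all members and 27.5% and 20.4% of all loci were. With both KO samples above, 62 of the 148 members averaging 1 FPKM or more were at least 2-fold higher in K15-CrePGR KO. The share was 8.94% over the 13565 loci. Of the 24, 18 were among the 148, and 13 were among the 62: Aldh3a1, Calm4, Cav1, Ccrl1, Crabp2, Ctgf, Dst, Il34, Klk7, Ly6g6c, Megf6, Nbl1 and Sox9. The filter favours these counts, since 30 of the 148 passed it only through the KO samples, Aldh3a1 and Megf6 among them. The share of all genes at least 2-fold higher in both TAC deletions was not counted. Cav1 was at 37.7 FPKM in cKO and 14.4 FPKM in Het Shh-CreER TACs. Aldh3a1, an aldehyde dehydrogenase of barrier epithelia, was at 20.7 FPKM in cKO and 6.06 FPKM in Het, and in K15-CrePGR TACs at 9.03 and 4.05 FPKM in KO, against 0.436 and 0.230 FPKM in WT.

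In HFSCs the Het library chose the members for high values, so a lower level in cKO is described and nothing is read from it. All 251 members averaged 1 FPKM or more, and 90 were at least 2-fold lower in cKO and 6 higher, where 4.61% and 5.91% of all 12202 genes were. The median log2 difference was -0.71 over all members and -0.91 over the 186 without a near-identical copy. Lor (-4.70), Sncg (-4.08), which encodes gamma-synuclein, Cck (-3.85) and Nog (-3.56) were the lowest. Shisa2 (1.27), Sfrp1 (1.25), Cdk2ap1 (1.17), Tax1bp3 (1.05) and Sox9 (1.00) were among the 6 higher. Markers of smooth muscle summed to 96.4 FPKM in cKO and 11.8 FPKM in Het HFSCs, and immune markers to 343 FPKM in cKO and 485 FPKM in Het, and their part in these differences was not tested.

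The members lower in cKO HFSCs had about the same share above in K15-CrePGR KO TACs as all members. Of the 90 at least 2-fold lower in cKO HFSCs, 81 had their own locus in the K15-CrePGR table, and both KO samples were above for 49 (60.5%) and below for 2 (2.47%), where 60.0% and 9.55% of all members and 27.5% and 20.4% of all loci were. S100a4, a calcium-binding protein with a near-identical copy, was at 587 FPKM in cKO and 1924 FPKM in Het HFSCs, and at 42.7 and 12.6 FPKM in KO 64 and KO 84, against 8.53 and 5.24 FPKM in WT 52 and WT 57.

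**Figure D4:**
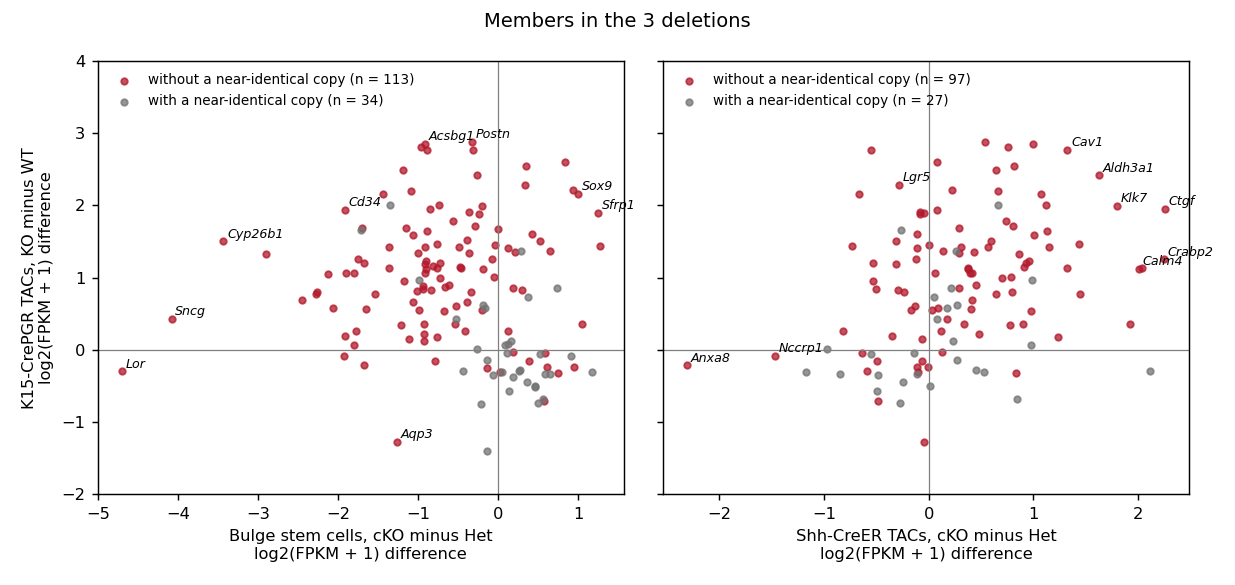
Members averaging 1 FPKM or more, plotted by their log2(FPKM + 1) difference in K15-CrePGR TACs (KO minus WT, vertical) against that in HFSCs (cKO minus Het, left panel) and in Shh-CreER TACs (cKO minus Het, right panel). Members without a near-identical copy lie mostly above 0 on the vertical axis in both panels, and run from Lor at -4.70 to Shisa2 at 1.27 in HFSCs. Those with a copy lie on both sides of 0, and S100a4 stands at 1.66 on the vertical axis and at -1.71 in HFSCs.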

How the data were processed

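RNA sequencing of 8 libraries was used as 3 tables of FPKM that the authors deposited, 1 column per library per the file headers. The submitters' processing notes name build mm9, TopHat and Cufflinks, without versions, and sequencing depth is unknown. Since each table was normalized on its own, genotypes were compared within tables. Unnamed loci of the K15-CrePGR table, 8904 of 45930, stayed out. They held 78.4% of the summed FPKM in WT 52, 78.6% in WT 57, 79.0% in KO 64 and 78.6% in KO 84.

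In that table, named loci averaging 1 FPKM or more entered a two-sided moderated test of limma 3.58.1 (R 4.3.3) on log2(FPKM + 1), with a mean-variance trend, Benjamini-Hochberg adjustment over all 13565 loci and a threshold of 0.05. Fold changes on that scale understate the change of low genes. No count model was used, since FPKM are not counts. P-values measure the spread between these 4 samples, which may be technical. An exact 0 can be a failed estimate. The other tables have 1 library per genotype and no test; genes at least 2-fold apart were counted. The procedure was tested on simulated data. Near-identical copies were found in GENCODE vM21 transcripts, without strand or level, and promoters came from RefSeq. Python 3.11.15, numpy 2.4.6, pandas 2.3.3 and matplotlib 3.10.9 were used.

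The members, the gene lists and the tests were chosen with earlier results of these data known. Genes were named by rule: the 8 highest in HFSC Het, up to 6 members of each list, up to 12 each way with the lowest limma p among those whose K15-CrePGR samples did not overlap, and the 8 highest and 8 lowest differences in each other table. Aldh3a1, Ccrl1, Il34 and Ly6g6c were named after their values were seen, and 1 gene that the rule names is not reported here. Alternatives were a pseudocount of 0.1 or 5, no filter or a mean of at least 5 FPKM, median scaling, quantile normalization, no trend, joined loci and each K15-CrePGR sample left out. The split by copies, a WT mean of at least 1 FPKM and KO 84 alone were added after the data were seen.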

Additional observations from a re-analysis of the deposited data

Results flagged for a closer look

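The members below were at least 2-fold higher in K15-CrePGR KO TACs, with both KO samples above both WT samples, and at least 2-fold lower in the cKO HFSC library. The HFSC comparison has 1 library per genotype and its Het library chose the members, so the difference between the 2 effects was not tested. The log2(FPKM + 1) differences were 1.66 in KO TACs and -1.71 in cKO HFSCs for S100a4, 1.94 and -1.91 for Cd34, and 1.59 and -1.06 for Dst. They were 1.06 and -1.90 for Cdsn, 1.20 and -1.68 for Spink5, and 2.20 and -1.08 for Slco2a1, in the same order of comparisons. For Cyp26b1 they were 1.502 and -3.43. In all, 16 members had this pattern, of which these 7 are given. Of the 7, Cdsn, Slco2a1 and Cyp26b1 reached the mean of 1 FPKM only through the KO TACs, so the filter favoured them. Of 13565 loci, 8.94% were higher in this way in KO TACs, and of 12202 genes, 4.61% were at least 2-fold lower in cKO HFSCs. The share of all genes with both was not counted. No member was at least 2-fold apart in opposite directions between Shh-CreER and K15-CrePGR TACs. Few could have been, since only 4 members were at least 2-fold lower in Shh-CreER cKO and only 2 in K15-CrePGR KO.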

How the results depend on the processing

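The median difference of members in K15-CrePGR TACs stayed positive under all alternatives. Of 47 tested members described by name, 40 kept their direction under all of them and 7 did not. Leaving out 1 sample gave log2 differences of -0.48 to 0.052 for Anxa8, -0.14 to 0.49 for Dmkn, -0.93 to 1.22 for Igfbp3, -1.70 to 1.10 for Lor, -0.98 to 0.81 for Nccrp1 and -0.052 to 0.92 for Sncg, all with overlapping samples. Nccrp1 was at 0.029 with a pseudocount of 5, and Foxc1 at -0.039 with quantile normalization. Of 148 members tested, both KO samples were above for 89 (60.1%) and below for 19 (12.8%), where 26.8% and 27.5% of 13565 loci were. The median log2 difference of members, 0.85, was 1.10 with a pseudocount of 0.1, 0.41 with 5, 0.62 with no filter, 0.57 with quantile normalization, 1.12 without near-identical copies and 0.64 with a WT mean of at least 1 FPKM. With a mean of at least 5 FPKM, 42 of 74 were above. Without copies, 5 were below. Members past the adjusted threshold, 0, were 1 (Nbl1) with a pseudocount of 0.1 and with a mean of at least 5 FPKM. Leaving out 1 sample gave 93 to 110 above, 21 to 32 below (32 without KO 64), medians of 0.66 to 0.94 and 0 called. Median scaling moved the median of all loci to -0.10, with 87 members above and 21 below; quantile normalization gave 77 and 25. In Shh-CreER TACs the 24 members higher and 4 lower became 47 and 9 with a pseudocount of 0.1 and 10 and 2 with 5; 13 were higher when averaging 5 FPKM or more, without copies 2 were lower, and with no filter the median of 0.26 became 0.080. In HFSCs the median of -0.71 was -0.91 without copies. A pseudocount weighs most on low genes, by its construction; other causes were not tested. No paired analysis was possible because the K15-CrePGR sample numbers 64, 84, 52 and 57 are not shared between genotypes. The depth is unknown, so values under 1 FPKM cannot be given a counting error.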
